A study of Mus musculus with 2 samples.

Results

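Cxcl1, Cxcl2 and Cxcl3, which encode chemokines that attract neutrophils, were examined together with Cxcr2, which encodes the receptor these chemokines bind, and Csf3r, which encodes the receptor of granulocyte colony-stimulating factor. The 5 genes were taken by symbol from the 2 deposited matrices and are 5 of the 32285 features in each matrix. J558 plasmacytoma cells, a mouse plasma cell myeloma line, had been grown under the skin of the flank in female BALB/c mice. The mice had received oral vehicle (0.5% methylcellulose) or TAK-931, an inhibitor of the kinase CDC7, at 60 mg/kg once daily for 6 days. The allografts were dissociated and single cells were captured in droplets. The 2 groups share the line, the strain and the sex. Each group is 1 library from 1 tumor, so no difference between the groups could be tested and none has a replicate error. The intervals given are exact 95% intervals of counting error only (Poisson for levels, conditional binomial for folds, Clopper-Pearson for shares).

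The 3 ligands are small secreted proteins that are made by macrophages, fibroblasts, endothelial cells and neutrophils themselves in inflamed tissue, and they draw neutrophils along a gradient by way of the G protein-coupled receptor Cxcr2. Their genes are classical targets of the transcription factor NF-kB, and their mRNAs are short-lived. Csf3r supports the production and survival of neutrophils and is also carried by monocytes.

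The ligand genes lie on chromosome 5 of mouse build GRCm38, in the annotation GENCODE vM21. Cxcl3 spans chr5:90786103-90789600, Cxcl1 spans chr5:90891241-90893115 and Cxcl2 spans chr5:90903871-90905938. Cxcr2 lies at chr1:74153989-74161246 and Csf3r at chr4:126024550-126044440. All 5 are protein-coding genes on the plus strand. The 120 bases before each ligand gene's annotated start are shown because they hold the same pair of short letter runs at nearly the same distance from the start. The sequences are RefSeq sequences of GRCm38.p6, plus strand, at chr5:90891121-90891240 for Cxcl1, chr5:90903751-90903870 for Cxcl2 and chr5:90785983-90786102 for Cxcl3. The first capitals mark GGAATTTCC, the letters of an NF-kB type site, and the second capitals mark the TATA-like run ATAAAAGG.
Cxcl1: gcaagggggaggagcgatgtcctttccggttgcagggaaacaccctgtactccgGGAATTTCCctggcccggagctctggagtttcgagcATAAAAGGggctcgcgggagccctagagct
Cxcl2: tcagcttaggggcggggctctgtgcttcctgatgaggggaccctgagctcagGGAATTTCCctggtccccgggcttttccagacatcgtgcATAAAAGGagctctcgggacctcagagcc
Cxcl3: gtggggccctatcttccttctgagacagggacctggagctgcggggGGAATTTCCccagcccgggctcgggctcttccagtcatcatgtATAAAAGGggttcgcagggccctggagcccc

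GGAATTTCC began 66 bases before the start of Cxcl1, 68 before Cxcl2 and 74 before Cxcl3. ATAAAAGG began 30, 29 and 31 bases before the start, respectively. Both runs were searched on both strands and do not overlap each other. Among 27025 RefSeq promoter windows of 300 bases, 87 (0.322%) held the first run and 515 (1.91%) the second, and of the 5 genes the 3 ligands held each. The letters ATAAAAGG were chosen after the ligand windows were seen, so their presence in all 3 was fixed beforehand and is a description only. The reference is the C57BL/6J genome, not BALB/c, and a letter match describes the window without showing that a factor binds there. The 3 ligand transcripts are related in sequence. Cxcl2 and Cxcl3 share an exact run of 110 bases and Cxcl1 shares runs of up to 23 with either, whereas in the last 500 bases of the transcripts the longest run shared by any pair was 16. A read that lies wholly in the run of 110 bases cannot be told apart between Cxcl2 and Cxcl3. The libraries were made with a 3' kit, and how many reads came from that run was not tested.

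Barcodes with over 500 detected genes and under 15% mitochondrial UMIs (unique molecular identifiers, each standing for 1 captured transcript) were kept, which left 4163 of 4565 barcodes in the vehicle library and 4635 of 6558 in the TAK-931 library. The vehicle library was the deeper one, with 144767193 UMIs and a median of 36490 per kept barcode against 77369283 and 12298, and 8 barcode sequences occurred in both. Kept barcodes were placed in classes by fixed marker genes, none of which is a chemokine or receptor studied here, and each class is called "-like" for that reason. Markers of more than 1 class were present in 47 vehicle and 373 TAK-931 barcodes, and 268 and 198 barcodes met no gate. Both kinds stayed in the whole-library levels but entered no class. J558-like barcodes made up 79.0% of kept barcodes in the vehicle library and 3.04% in the TAK-931 library, while monocyte/macrophage-like barcodes made up 7.23% and 51.3%. Every whole-library level below is read against this difference in makeup. A level is given as CPM, a gene's UMI count scaled to a total of 1000000 UMIs in the class, and fewer cells of a type and less RNA per cell cannot be told apart in a whole-library level.

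The neutrophil-like class, which is the class expected to carry Cxcr2, held 24 barcodes in the vehicle library (0.577% of kept barcodes, 0.370 to 0.857) and 54 in the TAK-931 library (1.17%, 0.876 to 1.52). Outside the J558-like class the order was the opposite, with 2.75% (1.77 to 4.06) in the vehicle library and 1.20% (0.904 to 1.56) in the TAK-931 library. Among neutrophil-like and monocyte/macrophage-like barcodes together the neutrophil-like share was 7.38% and 2.22%. These were barcodes of low RNA content, with medians of 1604 and 2557 UMIs and 662.5 and 770 detected genes. The study's limit of 2000 genes would have left 0 of them in the vehicle library and 1 in the TAK-931 library.

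The gate itself used the 12 neutrophil markers, so their presence in the class is a description and not a test of the label. S100a9, a calcium-binding protein abundant in neutrophils, was detected in 100% of these barcodes in both libraries, and 11 of 12 neutrophil markers in the vehicle library and 12 of 12 in the TAK-931 library had at least 1 UMI. Ly6g, a surface antigen that defines mouse neutrophils, had 0 UMIs in the vehicle barcodes and 46 UMIs in 6 of the 54 TAK-931 barcodes. Macrophage markers were also seen in the class, with 6 of 13 detected and a summed level of 1094 CPM in the vehicle library and 11 of 13 and 2699 CPM in the TAK-931 library. Their part in the neutrophil-like levels was not tested. Of the 8 fibroblast markers, 0 were detected in the vehicle barcodes and 3 in the TAK-931 barcodes.

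Over all kept barcodes, 4 of the 5 genes were higher in the TAK-931 library. Cxcl2, the most abundant of the ligands, was at 73.5 CPM in the vehicle library and 1364 CPM in the TAK-931 library, an 18.6-fold difference (18.2 to 18.9). Cxcl1 was at 21.3 and 236 CPM, an 11.1-fold difference (10.7 to 11.5). Cxcl3 was far less abundant, at 0.501 and 6.10 CPM from 72 and 449 UMIs, and differed 12.2-fold (9.49 to 15.9).

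The receptors were not alike. Csf3r was at 1.81 CPM in the vehicle library and 37.5 CPM in the TAK-931 library, 20.7-fold apart (18.2 to 23.6). Cxcr2 was at 2.07 and 2.41 CPM, a fold of 1.16 whose interval (0.958 to 1.40) includes no difference. Its log2 ratio of 0.22 was -0.95 with the limit of 2000 genes and 0.44 (0.18 to 0.70) with no mitochondrial limit. Among 18275 features with at least 10 UMIs in the 2 libraries together, 37.4% were at least 2-fold higher in the TAK-931 library and 19.0% were at least 2-fold lower, which is the background for the 4 higher and 0 lower among the 5 genes. Among genes that reached 50 UMIs in both libraries, the median log2 ratio was 0.17 for all kept barcodes, -0.09 for monocyte/macrophage-like, -0.24 for fibroblast/mural-like, -0.28 for endothelial-like and -0.10 for neutrophil-like barcodes. The ratios given here are not corrected for these shifts.

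The class levels were then held at their vehicle values and only the class makeup was changed. When the vehicle class levels were weighted by the class UMI shares of the TAK-931 library, the weighted level was 1202 CPM for Cxcl2 (16.4-fold above the vehicle library), 196 CPM for Cxcl1 (9.18-fold), 8.86 CPM for Cxcl3 (17.7-fold), 27.9 CPM for Csf3r (15.4-fold) and 1.85 CPM for Cxcr2 (0.894-fold). With the J558-like barcodes left out, Cxcl1 was at 297 CPM in the vehicle library and 261 CPM in the TAK-931 library. Cxcl3 was at 7.12 and 6.76 CPM on the same base, with an interval of the fold of 0.739 to 1.24. Cxcl2 was 1.49-fold higher (1016 and 1509 CPM), Csf3r 1.68-fold higher (24.7 and 41.5 CPM) and Cxcr2 lower at a fold of 0.637 (3.76 and 2.39 CPM).

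**Figure D1:**
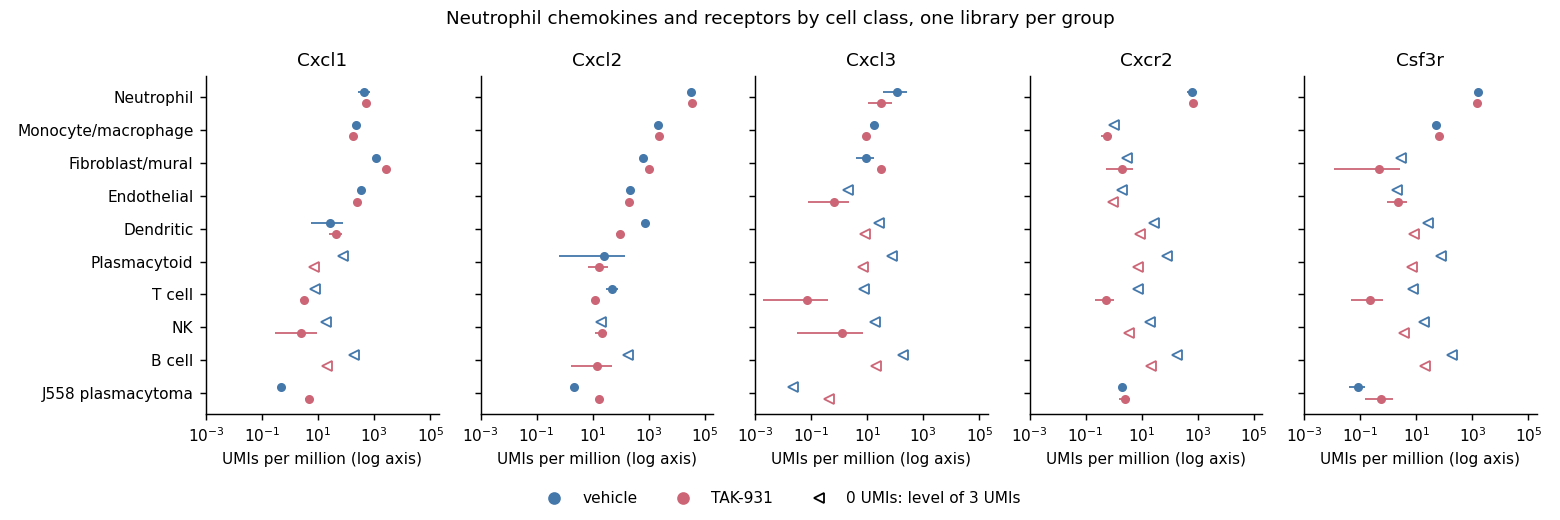
Level of each chemokine and receptor (CPM, logarithmic axis) in each cell class, 1 library per group, with exact 95% Poisson intervals as bars. Open triangles stand for classes with 0 UMIs and are drawn at the level of 3 counts. Cxcr2 and Csf3r stood highest in the neutrophil-like class in both libraries, Cxcl2 was highest there too, and Cxcl1 was highest in the fibroblast/mural-like class.

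Cxcl2 had its highest level in the neutrophil-like class. The class level was 30966 CPM (29324 to 32676) in the vehicle library and 35289 CPM (34361 to 36236) in the TAK-931 library. The monocyte/macrophage-like class followed at 2188 and 2226 CPM, and the neutrophil-like level exceeded it 14.2-fold (13.3 to 15) and 15.9-fold (15.4 to 16.3). Neutrophil-like barcodes held far less RNA, and counted as UMIs per barcode the excess was 2.53-fold and 3.13-fold.

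Single neutrophil-like barcodes varied widely. In the vehicle library Cxcl2 ran from 6.62 to 1210 UMIs per 10000, with a median of 234, and no barcode was at 0. In the TAK-931 library the median was 195, the highest barcode reached 2396 and 1 barcode was at 0. The medians of both libraries lay inside the range of the other, and the highest TAK-931 barcodes lay above the vehicle range. With each barcode thinned to 1000 UMIs, Cxcl2 was seen in 100% and 90.7% of neutrophil-like barcodes, against 1 of 60 (1.67%) and 13 of 995 (1.31%) T cell-like barcodes, which should lack it and held medians of 4029 and 9343 UMIs before thinning.

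Below the 2 myeloid classes, Cxcl2 stood at 595 and 991 CPM in fibroblast/mural-like barcodes and at 209 and 190 CPM in endothelial-like barcodes, and each step down in this order was larger than counting error in both libraries. Dendritic-like barcodes had 712 and 96.0 CPM, from 10 and 19 barcodes, and 68 of the 80 UMIs in the vehicle library came from 1 barcode. NK-like, plasmacytoid-like and B cell-like barcodes had at most 17 Cxcl2 UMIs in either library. The gene was near its background in the tumor class. J558-like barcodes had 2.22 CPM in the vehicle library and 17.0 CPM in the TAK-931 library, and the levels that free RNA would give there, read from markers of other lineages, were 2.10 and 21.2 CPM. Markers of macrophages in these J558-like barcodes were at 50.9 and 369 CPM in sum. T cell-like barcodes had 49.9 and 12.5 CPM, and 19 of the 20 UMIs in the vehicle library came from 1 barcode.

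The groups were then compared within classes. The fold of Cxcl2 of TAK-931 over vehicle was 1.02 (0.992 to 1.04) in monocyte/macrophage-like barcodes, 1.14 (1.07 to 1.21) in neutrophil-like barcodes and 0.908 (0.790 to 1.05) in endothelial-like barcodes. With mixed barcodes kept in their leading class, the endothelial-like log2 ratio was 1.02 (0.89 to 1.16) in place of -0.14. Without the top barcode of each library it was -0.42 (-0.66 to -0.18), and 1 TAK-931 barcode held 220 of the 592 UMIs (37.2%). The direction in this class thus depends on the processing. In fibroblast/mural-like barcodes the fold of Cxcl2 was 1.67 (1.52 to 1.83), with mixed barcodes left out. Fibroblast-like barcodes made up 15 of 42 barcodes of this class in the vehicle library and 46 of 84 in the TAK-931 library. The fold was 1.51 (1.35 to 1.68) in fibroblast-like and 1.48 (1.22 to 1.79) in mural-like barcodes. Thinned to equal depth, 50.8% of monocyte/macrophage-like barcodes in the vehicle library and 50.5% in the TAK-931 library held a Cxcl2 UMI, where the unthinned shares were 70.1% and 75.2%.

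**Figure D2:**
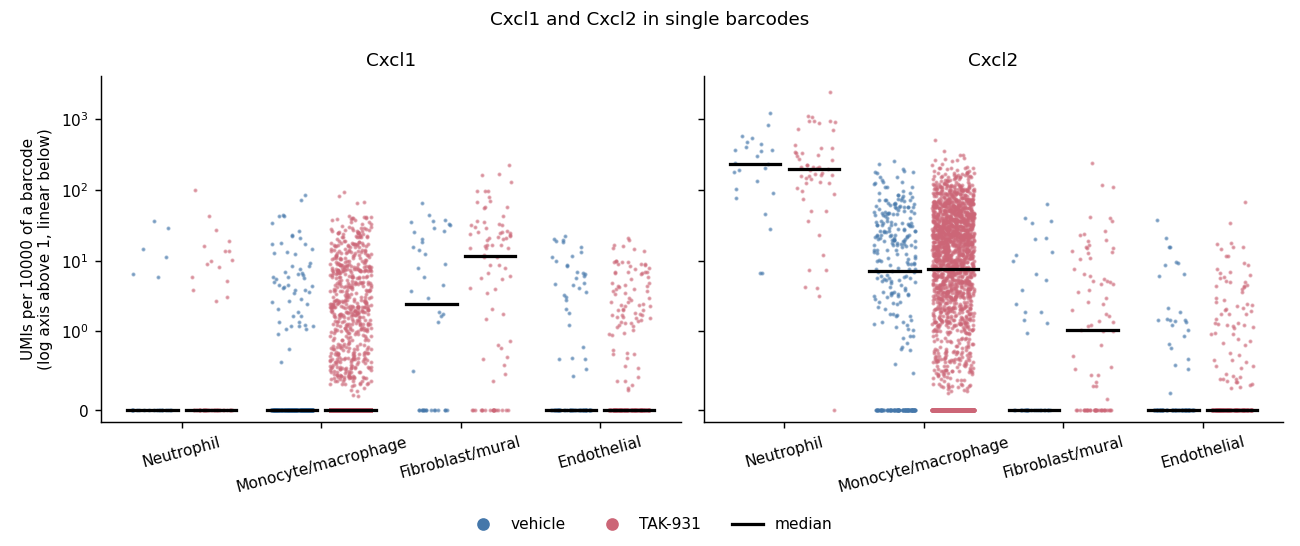
Cxcl2 and Cxcl1 in single barcodes (UMIs per 10000, axis logarithmic above 1 and linear below) of the main source classes in both libraries, 1 point per barcode, with the median drawn as a line. Neutrophil-like barcodes had median Cxcl2 values of 234 and 195, against 7.16 and 7.66 in monocyte/macrophage-like barcodes.

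Macrophages were split by the complement genes C1qa, C1qb and C1qc, which mark mature tissue macrophages, at 5 UMIs per 10000. C1q-low barcodes had more Cxcl2 than C1q-high barcodes in both libraries, at 3463 and 1609 CPM in the vehicle library (2.15-fold) and 2988 and 1879 CPM in the TAK-931 library (1.59-fold). The same order held for the levels of Cxcl1 (2.07-fold and 1.54-fold) and Cxcl3 (2.20-fold and 5.05-fold). Counted as UMIs per barcode, the folds were 1.38 and 1.25 for Cxcl2 and 1.32 and 1.21 for Cxcl1. Before thinning, Cxcl1 was seen in 19.2% of C1q-low and 19.3% of C1q-high vehicle barcodes, and in 21.7% and 26.6% of TAK-931 barcodes. Thinned to 1000 UMIs, the shares were 10.4% and 6.25% in the vehicle library and 9.29% and 8.44% in the TAK-931 library. Between the groups Cxcl2 was higher in the TAK-931 library in C1q-high barcodes (1.17-fold, 1.13 to 1.21) and lower in C1q-low barcodes (0.863-fold, 0.832 to 0.895). The limit of 5 was chosen with values in view.

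Cxcl2 and Cxcl1 were often found in the same macrophages. After thinning, Cxcl2 was seen in 24 of 24 vehicle monocyte/macrophage-like barcodes that held Cxcl1 and in 46.6% (40.6 to 52.6) of those that did not. In the TAK-931 library it was seen in 178 of 208 (85.6%, 80.1 to 90.1) and in 47.1% (45.0 to 49.2). A Cxcl1 UMI was seen in 58 of 301 vehicle and 590 of 2380 TAK-931 barcodes of this class before thinning, and a barcode without one may still have held the transcript.

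Cxcl1 had its highest level in the fibroblast/mural-like class, the supporting cells around vessels and in the stroma. The class stood at 1164 CPM (1098 to 1232) in 42 vehicle barcodes and at 2551 CPM (2483 to 2620) in 84 TAK-931 barcodes, a 2.19-fold difference (2.06 to 2.34). Fibroblast-like barcodes alone were at 1512 and 2810 CPM, and mural-like barcodes at 775 and 2195 CPM. The median barcode had 2.43 UMIs per 10000 in the vehicle library and 11.5 in the TAK-931 library, the highest had 64.6 and 226, and 16 and 19 barcodes were at 0. Thinned to 1000 UMIs, Cxcl1 was seen in 42.9% and 54.8% of barcodes.

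One TAK-931 barcode held 702 of the 5362 Cxcl1 UMIs of the class (13.1%), and without the top barcode of each library the log2 ratio was 1.00 in place of 1.13. Other lists of genes differed in the same class as well. Macrophage markers summed to 160 CPM in the vehicle library, with 8 of 13 detected, and to 904 CPM in the TAK-931 library, with 13 of 13 detected. Of the 13 immediate-early and heat-shock genes known to respond to tissue dissociation, 6 were at least 2-fold higher and 0 lower, where 13.3% and 8.61% of all features of the class were, and the sum of the 13 genes was 9044 and 16595 CPM. The part of either in the Cxcl1 difference was not tested.

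Endothelial-like and monocyte/macrophage-like barcodes had less Cxcl1 in the TAK-931 library. The level was at 348 and 239 CPM in endothelial-like barcodes, a fold of 0.689 (0.615 to 0.772), and at 227 and 179 CPM in monocyte/macrophage-like barcodes, a fold of 0.787 (0.727 to 0.853). The endothelial-like log2 ratio of -0.54 was -0.0042 (-0.12 to 0.11) with mixed barcodes kept, and the monocyte/macrophage-like ratio of -0.35 was -0.09 (-0.21 to 0.035) with under 10% mitochondrial UMIs. Neutrophil-like barcodes had 442 CPM from 19 UMIs and 496 CPM from 77 UMIs, and the interval of that fold (0.672 to 1.96) includes no difference, whereas with under 10% mitochondrial UMIs the log2 ratio was 1.05 (0.083 to 2.17). In the vehicle library the neutrophil-like and endothelial-like levels could not be ordered (interval of the fold 0.760 to 2.01). Fibroblast/mural-like barcodes exceeded endothelial-like ones 3.35-fold and 10.7-fold, and monocyte/macrophage-like ones 5.12-fold and 14.3-fold. J558-like barcodes had 0.464 and 4.88 CPM, where free RNA would give 0.608 and 3.68 CPM.

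Cxcl3, the least abundant ligand, was found mainly in macrophages and fibroblasts. Monocyte/macrophage-like barcodes had 17.3 CPM in the vehicle library and 8.94 CPM in the TAK-931 library, a fold of 0.518 (0.385 to 0.709). Fibroblast/mural-like barcodes had 8.84 and 30.9 CPM, a fold of 3.50 (1.73 to 7.99), which rests on 9 UMIs in 2 barcodes and 65 UMIs in 8 barcodes. The log2 ratio of 1.81 was 2.92 without the top barcode of each library and 1.09 as the mean of barcode CPM. The split of that class went opposite ways, with 6.45 and 49.1 CPM (3 and 64 UMIs) in fibroblast-like barcodes and 11.5 and 1.31 CPM (6 UMIs and 1 UMI) in mural-like barcodes. Neutrophil-like barcodes had 5 UMIs in each library, or 116 and 32.2 CPM, with an interval of the fold (0.0637 to 1.20) that includes no difference. No Cxcl3 UMI was seen in 3289 and 141 J558-like barcodes, and none of the T cell-like, NK-like or endothelial-like classes had more than 2.

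**Figure D3:**
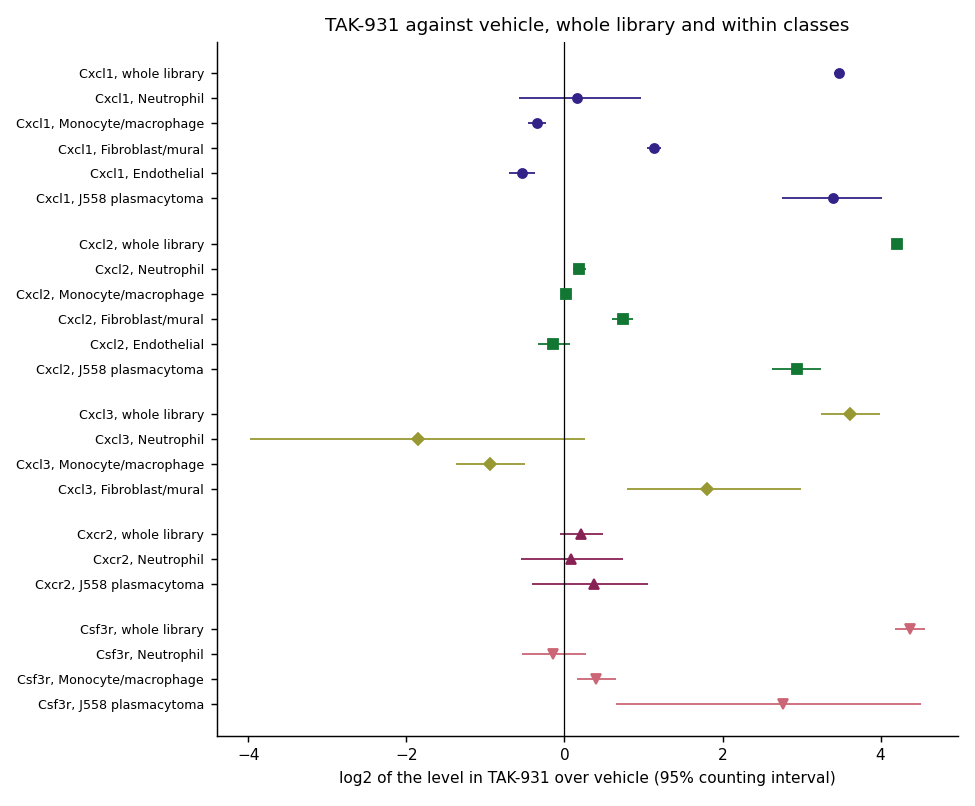
Log2 ratio of TAK-931 over vehicle for each gene over all kept barcodes and in each class with enough UMIs, with exact conditional 95% intervals as bars and a line at 0. For Cxcl1 the fibroblast/mural-like ratio was 1.13 while the monocyte/macrophage-like and endothelial-like ratios were -0.35 and -0.54.

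Cxcr2 was carried by neutrophil-like barcodes, at 629 CPM (414 to 915) in the vehicle library and 663 CPM (541 to 805) in the TAK-931 library, and the fold of 1.06 (0.685 to 1.68) did not separate the groups at this depth. The gene was detected in 16 of 24 and 43 of 54 of these barcodes, in 1 to 8 UMIs each. Thinned to 1000 UMIs the shares were 33.3% and 44.4%. Monocyte/macrophage-like barcodes had 0 UMIs (upper limit 1.22 CPM) in the vehicle library, where the neutrophil-like level was 632-fold above a floor set at 3 counts over the class. They had 20 UMIs (0.577 CPM) in the TAK-931 library, where it was 1150-fold higher.

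Cxcr2 was also seen at a low level in the tumor class. J558-like barcodes had 1.94 CPM in the vehicle library, spread over 153 of 3289 barcodes with at most 10 UMIs in any, and 2.51 CPM in the TAK-931 library, where 9 of 18 UMIs came from 1 barcode. The log2 ratio of 0.37 was -0.54 without the top barcode of each library and -0.48 as the mean of barcode CPM. The free RNA level estimated there was 0.0591 and 0.0374 CPM. The vehicle value is thus above the background estimate. The neutrophil-like level exceeded the J558-like level 323-fold (209 to 481) and 264-fold (159 to 464).

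Csf3r stood at 1560 CPM (1209 to 1981) in neutrophil-like barcodes of the vehicle library and at 1417 CPM (1236 to 1617) in those of the TAK-931 library, a fold of 0.908 (0.688 to 1.21). Monocyte/macrophage-like barcodes had 49.8 and 65.6 CPM, a fold of 1.32 (1.12 to 1.57). The neutrophil-like level was 31.3-fold (23.1 to 42.1) and 21.6-fold (18.7 to 24.8) above it. C1q-high barcodes had 41.5 and 66.8 CPM and C1q-low barcodes 68.0 and 63.1 CPM, so the order of the C1q-low and C1q-high barcodes seen in the vehicle library (1.64-fold) was not seen in the TAK-931 library (0.945-fold, 0.863 to 1.03). T cell-like barcodes had 0 UMIs and 0.222 CPM.

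In which cells the transcripts of each gene were found depended on the number of cells as well as on their levels. Monocyte/macrophage-like barcodes, with 2.10% and 47.1% of all UMIs, held 62.4% of Cxcl2 UMIs in the vehicle library and 76.9% in the TAK-931 library. The few neutrophil-like barcodes, with 0.0299% and 0.211% of all UMIs, held 12.6% and 5.46%. For Cxcl1 the fibroblast/mural-like share was 38.6% and 30.8%, the monocyte/macrophage-like share 22.3% and 35.7% and the endothelial-like share 16.7% and 4.30%. Endothelial-like barcodes held 1.03% and 4.24% of all UMIs. In the vehicle library the last 2 classes had 685 and 513 Cxcl1 UMIs, and mixed barcodes with endothelial markers held a further 475. The order of these 2 classes there can therefore depend on where mixed barcodes are placed. Cxcl3 came mainly from monocyte/macrophage-like barcodes, at 72.2% and 69.0%.

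The sources of the receptors differed from each other. J558-like barcodes held 87.2% of Cxcr2 UMIs in the vehicle library and 10.2% in the TAK-931 library, and neutrophil-like barcodes held 9.06% and 58.2%. The J558-like class held 93.0% and 9.75% of all UMIs, so its Cxcr2 share lay near its share of all RNA in each library. Csf3r came from monocyte/macrophage-like barcodes (57.5% and 82.4%) ahead of neutrophil-like ones (25.7% and 7.97%). Barcodes with markers of more than 1 class, which can be doublets, were left out of the classes, and they held 18.8% and 27.9% of Cxcl1 and 8.89% and 13.4% of Cxcl2.

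**Figure D4:**
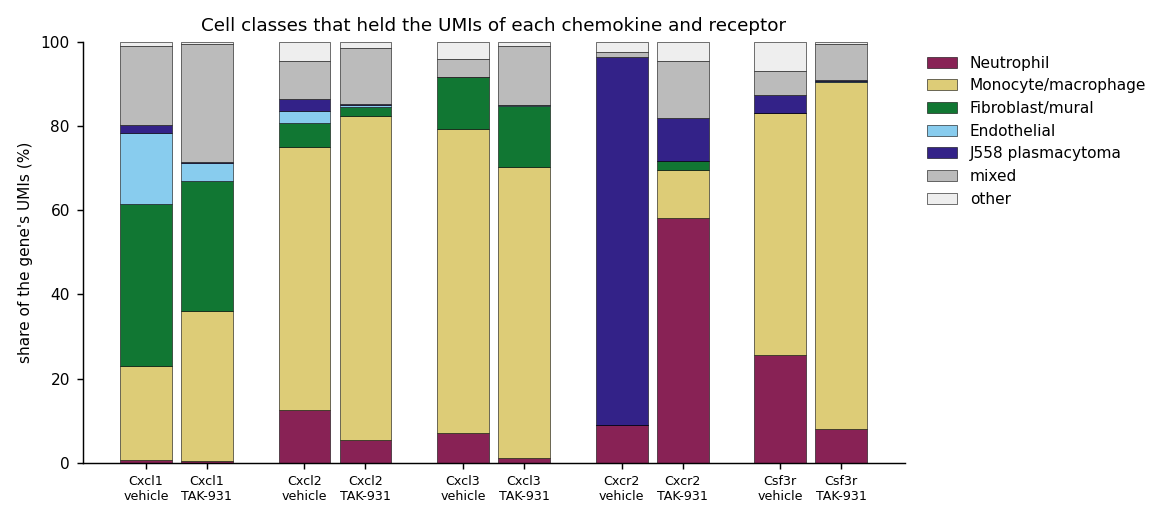
Share of the UMIs of each gene (percent of kept barcodes' UMIs, bars from 0 to 100) found in each cell class, for both libraries. Cxcl2 and Csf3r were mostly in monocyte/macrophage-like barcodes. In the vehicle library 87.2% of Cxcr2 was in J558-like barcodes, which held 93.0% of all UMIs. In the TAK-931 library 58.2% of Cxcr2 was in neutrophil-like barcodes, and J558-like barcodes held 9.75% of all UMIs.

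The counts of genes past a 2-fold difference were read against all features of the same class. In monocyte/macrophage-like barcodes 0 of the 5 genes were higher and 0 lower, where 7.89% of 13538 features were higher and 8.0% lower. In neutrophil-like barcodes 0 were higher and 1, Cxcl3 at 5 UMIs in each library, was lower, where 17.4% and 20.2% of 1914 features were. In fibroblast/mural-like barcodes Cxcl1 and Cxcl3 were higher and 0 lower among 3 genes with enough UMIs, where 13.3% and 8.61% of 10738 features were. In endothelial-like barcodes 0 of 2 were higher and 0 lower, where 9.11% and 10.7% of 11145 features were. In J558-like barcodes Cxcl1, Cxcl2 and Csf3r were higher and 0 lower among 4 genes, where 9.58% and 4.97% of 14659 features were. Csf3r stood at 0.0823 and 0.557 CPM there, beside free RNA estimates of 0.0517 and 0.584 CPM, and the corresponding values of both ligands are given above.

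Of 32 further genes of neutrophil recruitment and response, such as other CXC chemokines, cytokines, leukotriene enzymes and adhesion molecules, 27 of 31 with enough UMIs were at least 2-fold higher in the TAK-931 library over all kept barcodes and 0 were lower, where 37.4% and 19.0% of all features were. Within monocyte/macrophage-like barcodes 3 of 23 were higher (Cxcl12, with 0 UMIs in the vehicle library, Csf3 and Il1rn) and 1 lower (Pf4), against 7.89% and 8.0% of all features. In fibroblast/mural-like barcodes 12 of 17 were higher and 0 lower, with a median log2 ratio of 1.33 against -0.05 over all features. Of these 12, Cxcr4, Csf3, Il1b, Fpr2 and Itgb2 had 0 UMIs in the vehicle library, where a 0 was set to a floor of 3 counts. Csf2ra and Il1rn had 1 UMI each there, so these genes had enough UMIs only through the TAK-931 library. The 12 include genes of leukocytes (Il1b, Il1rn, Itgb2, Fpr2, Csf2ra and Csf2rb). Macrophage markers summed to 160 and 904 CPM in the class, and the part of those markers in the count was not tested. The background there was 13.3% higher and 8.61% lower. In endothelial-like barcodes 10 of 19 were higher and 3 lower, against 9.11% and 10.7% of all features. The 10 include genes of leukocytes (Csf2ra, Il1b, Il1rn, Alox5ap, Itgam and Itgb2) with 0 or 1 UMIs in the vehicle library. Macrophage markers in the endothelial-like class summed to 407 and 508 CPM, with 11 and 13 of 13 detected, and their part was not tested. In neutrophil-like barcodes 2 of 17 were higher (Csf1 and Il1b) and 0 lower, against 17.4% and 20.2% of all features. Csf3, the ligand of Csf3r, was at 0.181 CPM (26 UMIs) over the vehicle library and 4.47 CPM (329 UMIs) over the TAK-931 library. Its log2 ratio was 1.23 (-0.17 to 3.13) in monocyte/macrophage-like and 0.58 (-0.35 to 1.60) in endothelial-like barcodes.

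The NF-kB pathway genes on a second list, which includes the inhibitors Nfkbia and Tnfaip3 and the mRNA decay factors Zfp36 and Zc3h12a, were at least 2-fold higher in 9 of 9 cases over all kept barcodes, against the same background of 37.4%. Within monocyte/macrophage-like barcodes 0 of 9 passed 2-fold in either direction, where 7.89% of all features were higher and 8.0% lower. In fibroblast/mural-like barcodes Tnfaip3 and Zfp36 were higher, in endothelial-like barcodes Zc3h12a, in J558-like barcodes Nfkbiz and Tnfaip3, and in neutrophil-like barcodes Zfp36, Nfkb2 and Relb were higher and Zc3h12a lower. Nfkb2 and Relb had 1 UMI each in the vehicle neutrophil-like barcodes, and their intervals include no difference. The shares of all features that were higher and lower were 13.3% and 8.61% in the fibroblast/mural-like class, 9.11% and 10.7% in the endothelial-like class, 9.58% and 4.97% in the J558-like class and 17.4% and 20.2% in the neutrophil-like class. Of the 13 dissociation genes, 10 were higher over all kept barcodes (background 37.4%), 1 (Egr1) in monocyte/macrophage-like barcodes and 2 (Hspa1a and Hspa1b) in endothelial-like barcodes, with 0 lower in each. In neutrophil-like barcodes 1 of 11 (Atf3) was higher and 2 (Fosb, whose interval includes no difference, and Socs3) lower, and in J558-like barcodes 4 of 13 were higher and 1 (Fosb) lower, against the shares just given for these classes.

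The genes whose levels were most like each of the 5 were ranked by Pearson's r of log2(CPM + 1) over 16 pairs of class and library, among 13680 genes. The pairs share libraries and depth, and the values are descriptive. Cxcl1 was most like Thbs1 (r = 0.967), followed by Ifitm3, Zfp503, Cd302 and Anxa3. Cxcl2 was most like P2ry2 (r = 0.95), followed by Lsmem1, Hacd4, Tnfaip2 and Gab2. Cxcl3 was most like Hp (r = 0.984), followed by Saa3, Pygl, Pilra and Sgms2.

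The receptors were ranked in the same way. Cxcr2 was most like Asprv1 (r = 0.984), followed by S100a9, which is a marker of the neutrophil-like class, Chil1, 4933432I03Rik and Dhrs9. Csf3r was most like Clec5a (r = 0.993), followed by Fpr1, Clec4d, Trem3 and Tlr13. Among the 5 genes themselves r was highest between Cxcl2 and Cxcl3 (0.891) and lowest between Cxcl1 and Cxcr2 (0.370).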

How the data were processed

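Whole-number UMI counts per gene and barcode for 1 vehicle and 1 TAK-931 allograft library were deposited by the authors, made with Cell Ranger 6.0.0 and mm10 according to the submitters' processing notes. The study's methods name a human build (hg38) for this step, which the mouse gene IDs in the files do not match. Kept barcodes had more than 500 detected genes and less than 15% of UMIs from mitochondrial genes, so that neutrophils, which hold little RNA, remained. A marker was present at 1 UMI per 10000 or more, and a barcode entered a class when at least 37.5% and at least 3 of its markers were present. Barcodes in several classes were left out of the classes, and doublets were not called. Class levels are summed UMIs of a library's class, given as CPM. The level of free RNA in a class was estimated from markers of other lineages. The depth was 144767193 and 77369283 UMIs. Genes named were the 5 genes, listed pathway genes by counts, with values where a result turned on them, and the 5 genes most like each. The genes, lists and cell classes were chosen with earlier results of these data known. Part of the recruitment list is not reported here. The C1q limit and the ATAAAAGG letters were chosen after values and windows were seen. Alternatives tried were other limits on genes and mitochondrial share, mixed barcodes kept, a stricter gate, mean barcode CPM, median-ratio scaling, free RNA subtracted, leaving out the top barcode and other C1q limits. Python 3.11.15, numpy 2.4.6, scipy 1.17.1, pandas 2.3.3 and matplotlib 3.10.9 were used.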

Additional observations from a re-analysis of the deposited data

Results flagged for a closer look

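The barcodes left out by the limits on genes and mitochondrial share also held ligand transcripts. In barcodes with at most 500 genes Cxcl2 was at 299 CPM in the TAK-931 library (1329 barcodes) and 207 CPM in the vehicle library (315 barcodes). In barcodes with over 500 genes and at least 15% mitochondrial UMIs, Cxcl1 was at 110 CPM in the TAK-931 library and 22.1 CPM in the vehicle library, and Cxcl2 at 1126 and 328 CPM. These 594 TAK-931 barcodes also held 40 Cxcr2 UMIs, 18.3% of all UMIs of that gene in the library, of which 27 lay in 9 neutrophil-like barcodes.

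Log2 ratios of TAK-931 over vehicle lay on opposite sides of 0 in different classes, with counting intervals that did not reach 0. The difference between classes was not tested. For Cxcl1 the ratio was 1.13 in fibroblast/mural-like and 3.40 in J558-like barcodes, against -0.35 in monocyte/macrophage-like and -0.54 in endothelial-like barcodes. For Cxcl2 it was 0.19 in neutrophil-like, 0.74 in fibroblast/mural-like, 2.94 in J558-like and 0.22 in C1q-high barcodes, against -2.00 in T cell-like and -0.21 in C1q-low barcodes. In the smaller dendritic-like class (10 and 19 barcodes) Cxcl2 was at -2.89, and at -0.83 (-1.90 to 0.31) without the top barcode of each library. For Cxcl3 it was 1.81 in fibroblast/mural-like and -0.95 in monocyte/macrophage-like barcodes. In the TAK-931 library the J558-like levels of Cxcl1 and Cxcl2 were 4.88 and 17.0 CPM, beside estimated free RNA levels of 3.68 and 21.2 CPM, and 19 of 20 vehicle UMIs behind the T cell-like value came from 1 barcode.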

How the results depend on the processing

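No paired analysis was possible because each group is 1 library. Of 565 alternative values, the log2 ratios moved by less than their counting interval in 182 of 229 cases and changed sign in 13. In 3 of these the reported interval lay off 0, all Cxcl2 in T cell-like barcodes (from -2.00 to 0.89 with mixed barcodes kept, 0.048 as the mean of barcode CPM and 2.15 without the top barcode). In the other 10 it included 0 (Cxcr2 over all kept barcodes and in J558-like barcodes, Cxcl2 in endothelial-like and monocyte/macrophage-like barcodes, Cxcl1 and Csf3r in neutrophil-like barcodes). Shares stayed within their interval in 247 of 336 cases. With the limit of 2000 genes the whole-library log2 ratios were 3.56 for Cxcl1, 4.60 for Cxcl2, 3.99 for Cxcl3, -0.95 for Cxcr2 and 5.13 for Csf3r. The Cxcl2 ratio in monocyte/macrophage-like barcodes was 0.15 there, the neutrophil-like share 0% and 0.0287%, the monocyte/macrophage-like share of Cxcl2 69.7% and 82.0% and that of Csf3r 86.7% and 90.1%. Neutrophil-like Cxcl2 could not be compared under this limit, with 0 vehicle barcodes.

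With under 10% mitochondrial UMIs the whole-library ratios of Cxcl1 and Cxcl2 were 3.56 and 4.31, Cxcl2 was 0.60 in neutrophil-like and 0.10 in monocyte/macrophage-like barcodes, and the monocyte/macrophage-like shares were 64.4% and 78.8% for Cxcl2 and 83.9% for Csf3r in the TAK-931 library. With no mitochondrial limit, neutrophil-like Cxcl2 was 0.28, fibroblast/mural-like Cxcl1 was 1.03 and the TAK-931 share of Cxcl2 was 76.1%. With mixed barcodes kept, Cxcl2 was 0.33 in neutrophil-like and 0.082 in monocyte/macrophage-like barcodes, the fibroblast/mural-like share of Cxcl1 was 40.4% and 41.7%, and the monocyte/macrophage-like share was 65.6% and 84.3% for Cxcl2 and 86.8% for Csf3r in the TAK-931 library. With 1 marker more required, monocyte/macrophage-like Cxcl2 was 0.068, the TAK-931 fibroblast/mural-like share of Cxcl1 was 32.9% and the monocyte/macrophage-like share of Cxcl2 was 65.0% and 79.0%. As the mean of barcode CPM, Cxcl2 was 0.10 in neutrophil-like and -0.14 in monocyte/macrophage-like barcodes. With median-ratio scaling it was 0.28 and 0.11, and fibroblast/mural-like Cxcl1 was 1.37. With free RNA subtracted, Cxcl2 was -0.00083 in monocyte/macrophage-like and -0.36 in endothelial-like barcodes. Without the top barcode, fibroblast/mural-like Cxcl1 was 1.00. With C1q limits of 1 and 20 UMIs per 10000, chosen after seeing the data, the log2 ratio of C1q-low over C1q-high for Cxcl2 was 1.03 and 1.05 in the vehicle library and 0.54 and 0.67 in the TAK-931 library. Causes of these shifts were not tested. The neutrophil-like class holds 42951 and 155261 UMIs, so a gene at under 69.8 CPM in the vehicle library falls below 3 counts there. With 1 tumor per group, the spread between tumors is unknown.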

Other observations

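Genes around the ligands and receptors also differed within single classes, named here after their values were seen. Il1b, which encodes the inflammatory cytokine interleukin-1 beta, was at 3609 CPM in neutrophil-like barcodes of the vehicle library and 9841 CPM in those of the TAK-931 library. In monocyte/macrophage-like barcodes, which held most of its UMIs, it was at 589 and 366 CPM. Il1rn, which encodes the natural antagonist of that cytokine's receptor, was at 115 and 259 CPM in monocyte/macrophage-like barcodes and at 2701 and 1816 CPM in neutrophil-like barcodes. Tnf was at 78.6 and 147 CPM in monocyte/macrophage-like and 978 and 824 CPM in neutrophil-like barcodes. Pf4, a chemokine of platelets and macrophages, was at 429 CPM in monocyte/macrophage-like barcodes of the vehicle library and 79.6 CPM in those of the TAK-931 library.

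In the stroma, Cxcl12, a chemokine that retains neutrophils in bone marrow, was at 42.7 and 505 CPM in endothelial-like barcodes and at 288 and 724 CPM in fibroblast/mural-like barcodes. Cxcl5, another ligand of Cxcr2, was at 29.5 and 72.3 CPM in fibroblast/mural-like barcodes. Mixed barcodes with neutrophil markers had Cxcl2 at 10220 CPM in 4 vehicle barcodes and 24108 CPM in 8 TAK-931 barcodes.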
